A study of Mus musculus with 2 samples.

Results

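The AP-1 transcription factors are basic leucine zipper (bZIP) proteins that bind DNA as dimers. The 10 genes followed here were Fos, Fosb, Fosl1, Fosl2, Jun, Junb, Jund, Batf, Batf3 and Atf3. They were found by symbol among the 32544 genes of the count tables, and each symbol matched 1 row. Levels were measured by single-cell mRNA sequencing (scRNA-Seq) of murine bone marrow-derived monocytes (BMDMs) from femurs, induced toward osteoclasts (OCs) in medium with 50 ng/ml M-CSF plus 100 ng/ml RANKL. The first library was labelled control, with no further genotype in the labels, and the second LysM-Cre;Arid1afl/fl, here the mutant library. In such animals Cre recombinase, made in myeloid cells from the Lyz2 locus, deletes the floxed segment of Arid1a, which encodes a BAF chromatin remodeler subunit. Both cultures received the same cytokines and were detached with trypsin, and the number of animals behind each library was not given. With 1 library per group no test between groups was possible, so every difference below is one between 2 libraries and not between genotypes.

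Fos proteins pair with Jun proteins on the AP-1 site, whereas Jun proteins can also pair with each other. In the OC lineage, M-CSF and RANKL signal through MAP kinases to AP-1, and c-Fos, the protein of Fos, is required for OC formation and acts upstream of Nfatc1, the master transcription factor of OCs. RANKL-induced c-Fos also induces Ifnb1, whose product interferon beta feeds back to restrain c-Fos. Several of these genes are immediate-early genes, transcribed within minutes of growth factors, stress or cell handling.

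The stretches of DNA before the start sites of the 4 members whose levels are followed most closely below are shown first, because they show which of the searched response elements lie next to each start. The windows hold the 250 bases upstream of the start site, 5′ to 3′ on the strand of the gene, from the RefSeq promoter table (GRCm38.p6), which held 9 of the 10 members. Capitals mark a match to a searched motif, and these matches are a description and not sites of binding.
Fos, chr12:85473640-85473889, plus strand: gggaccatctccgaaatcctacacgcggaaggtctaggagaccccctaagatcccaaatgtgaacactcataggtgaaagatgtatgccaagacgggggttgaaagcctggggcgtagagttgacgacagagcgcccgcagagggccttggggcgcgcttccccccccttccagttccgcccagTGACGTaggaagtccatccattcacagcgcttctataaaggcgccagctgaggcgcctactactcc
Jun, chr4:95052223-95052472, minus strand: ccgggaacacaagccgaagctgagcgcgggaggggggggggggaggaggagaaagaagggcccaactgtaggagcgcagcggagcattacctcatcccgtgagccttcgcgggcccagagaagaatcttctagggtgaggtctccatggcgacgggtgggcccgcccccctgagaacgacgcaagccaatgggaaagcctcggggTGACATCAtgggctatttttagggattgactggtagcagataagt
Fosl2, chr5:32136222-32136471, plus strand: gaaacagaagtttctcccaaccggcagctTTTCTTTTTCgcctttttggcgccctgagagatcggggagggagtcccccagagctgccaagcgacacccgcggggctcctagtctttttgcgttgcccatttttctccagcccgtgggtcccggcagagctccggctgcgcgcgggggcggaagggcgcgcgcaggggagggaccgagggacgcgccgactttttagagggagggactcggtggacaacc
Atf3, chr1:191183334-191183583, minus strand: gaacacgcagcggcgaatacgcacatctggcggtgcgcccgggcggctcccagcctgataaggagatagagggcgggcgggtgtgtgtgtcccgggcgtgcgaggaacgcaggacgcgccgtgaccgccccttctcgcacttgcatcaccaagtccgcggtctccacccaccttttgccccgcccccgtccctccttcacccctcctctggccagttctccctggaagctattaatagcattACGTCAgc
In Fos the capitals mark the cyclic AMP response element (CRE) half-site TGACGT at bases -66 to -61, counted from the start site. In Atf3 they mark the same half-site on the other strand, ACGTCA, at bases -8 to -3. The Jun window held TGACATCA, a variant AP-1 site, at bases -45 to -38. The Fosl2 window held 1 match to the core of the interferon-stimulated response element, read on the opposite strand at bases -221 to -212. Batf, not printed, held TGACGT at bases -98 to -93. Both strands were searched for every motif. The half-site TGACGT was present in 6.47% of 32851 windows of this length, TGACATCA in 2.93% and the interferon-stimulated element core in 2.98%. None of the 9 windows held the AP-1 site TGANTCA (6.75% of all windows), the full CRE TGACGTCA (1.55%), which contains the half-site, or the serum response element core (0.0609%). Each window precedes 1 listed start site, and other start sites of a gene were not searched. By its distance from Batf3, the Atf3 window lies inside the gene span given below, so the sequence before the 5′ end of that span was not searched. Bases more than 250 upstream of the start site were not searched either, so these absences do not show that a gene lacks the element.

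Coordinates of the genes themselves are those of GRCm39. Fos lies on chromosome 12 at 85520658 to 85524047 and Batf on the same chromosome at 85733423 to 85755861. Batf3 and Atf3 are neighbours on chromosome 1, at 190830044 to 190841142 and 190902493 to 190950241. The other members are Fosb on chromosome 7 (19036621 to 19043976), Fosl1 on chromosome 19 (5497575 to 5505974), Fosl2 on chromosome 5 (32292707 to 32315186), Jun on chromosome 4 (94937271 to 94940459), and Junb (85701113 to 85705359) and Jund (71151599 to 71153265) on chromosome 8. Exons of 4 members overlap those of a gene on the opposite strand that is also in the count tables, namely Fosl1 with Ccdc85b over 1163 bases, Jun with Junos over 528, Junb with Prdx2 over 173 and Jund with Gm11175 over 877. It was not stated that counting used the strand, so the levels of these 4 members are uncertain in that respect.

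After filtering, the control library held 6269 cells with a median of 23978 unique molecular identifiers (UMIs, each counting 1 captured mRNA molecule), and the mutant library 5663 cells with a median of 21734. They shared 8 cell barcodes. For a level, a gene's UMIs were added up across cells and scaled to 1000000 UMIs of those cells (CPM), with an exact Poisson 95% interval that covers counting error only. In such sums, fewer cells with a transcript and less transcript per cell cannot be told apart. The targeted gene, Arid1a, stood at 51.9 CPM in control and 20.4 CPM in the mutant library, although a 3′ tag can also count transcripts of a recombined allele. All 6 monocytic markers were detected in both libraries, with summed levels of 11832 and 7617 CPM. The 4 neutrophil markers S100a8, S100a9, Camp and Ngp summed to 264 CPM in control and 1982 CPM in the mutant library, stromal markers to 4.42 and 11.4 CPM, lymphoid markers, of which 3 of 4 were detected, to 0.196 and 1.13 CPM, and the 2 erythroid markers to at most 0.0183 CPM. Neutrophil-marker cells numbered 17 in control and 83 in the mutant library.

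All 10 AP-1 genes were detected in both libraries, at levels from 1.78 to 351 CPM. A 3′ UMI count registers each captured molecule once whatever its length. Other differences in capture between genes were not examined, so the order below is one of captured UMIs. In the control library Junb was the highest at 239 CPM (236 to 241), followed by Fos at 226 CPM (224 to 229), Jund at 126 CPM (124 to 128) and Jun at 86.3 CPM (84.8 to 87.7). Atf3 at 34.6 CPM, Fosl2 at 25.7 CPM and Fosl1 at 15.4 CPM came next. The lowest were Fosb at 5.62 CPM (5.26 to 5.99), Batf at 4.20 CPM (3.89 to 4.52) and Batf3 at 2.40 CPM (2.16 to 2.65). No neighbours in this order had overlapping intervals. In the mutant library Fos was the highest at 351 CPM (348 to 354), ahead of Junb at 271 CPM (268 to 274), and Fosl1 came below Fosb and Batf. There the intervals of Fosl1 (5.79 to 6.66 CPM) and Batf (5.87 to 6.73 CPM) overlapped. Summed over the 10 genes, the level was 765 CPM (761 to 769) for the control library and 934 CPM (929 to 939) for the mutant one. The 4 Fos family genes contributed 35.7% of these UMIs in control and 40.6% in the mutant library, the 3 Jun genes 58.9% and 51.5%, and Batf, Batf3 and Atf3 5.38% and 7.90%.

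**Figure D1:**
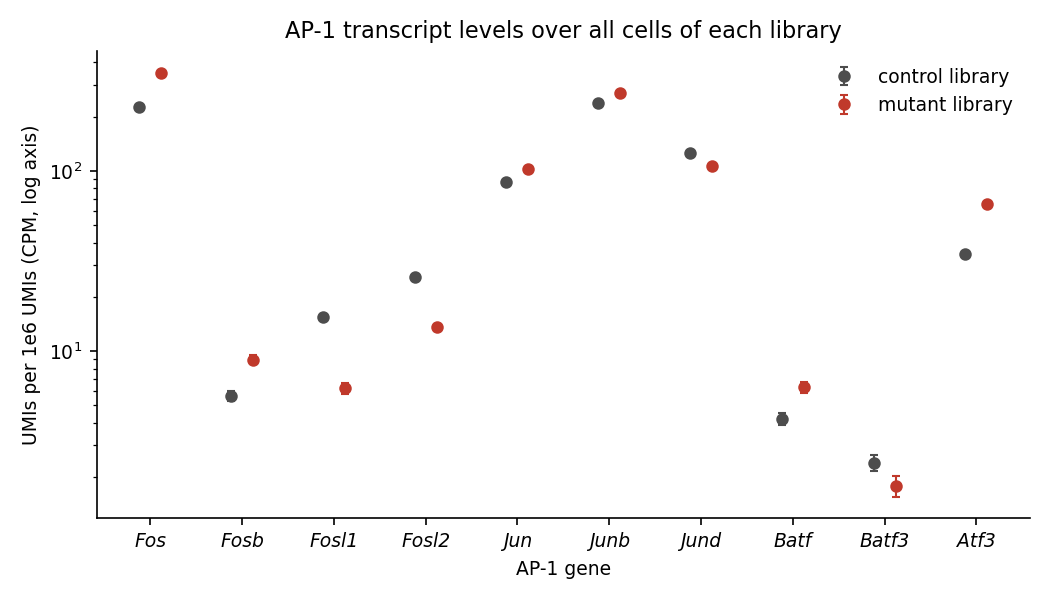
Levels of the 10 AP-1 genes over all cells of each library, in CPM on a log axis, with exact Poisson 95% intervals (mostly smaller than the points) and 1 point per library. Fos and Atf3 lay higher in the mutant library (351 and 65.7 CPM) than in the control library (226 and 34.6 CPM), whereas Fosl1 and Fosl2 lay lower (6.21 and 13.5 against 15.4 and 25.7 CPM).

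Which AP-1 genes differed between the libraries was asked first over all cells. The Fos family split into a higher and a lower pair. Fos, which encodes c-Fos, stood at 226 CPM in control and 351 CPM in the mutant library, 1.55-fold higher (log2 ratio 0.63, 0.61 to 0.65). Fosb, an immediate-early relative of Fos, was at 5.62 and 8.98 CPM (log2 ratio 0.68, 0.55 to 0.80). The other pair encodes Fra-1 and Fra-2, which lack the strong transactivation domain of c-Fos. Fosl1 was at 15.4 CPM in control and 6.21 CPM in the mutant library, 2.48-fold lower (log2 ratio -1.31, -1.42 to -1.19), and only 0.809% of tested genes had a lower ratio. Fosl2 was at 25.7 and 13.5 CPM, 1.90-fold lower (log2 ratio -0.93, -1.01 to -0.85).

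The Jun family differed less. Jun, the classical partner of c-Fos, was at 86.3 CPM in control and 102 CPM in the mutant library (log2 ratio 0.25, 0.21 to 0.28). Junb, the most abundant Jun gene, was at 239 and 271 CPM (log2 ratio 0.18, 0.16 to 0.20). Jund, which is expressed more constantly than its relatives in most cells, was the only Jun gene with the lower level in the mutant library, at 126 and 107 CPM (log2 ratio -0.23, -0.26 to -0.20). None of the 3 reached 1.5-fold in either direction.

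Atf3, a stress-induced member that can dimerise with Jun proteins, was at 34.6 CPM in control and 65.7 CPM in the mutant library, 1.90-fold higher (log2 ratio 0.93, 0.88 to 0.98). The Batf genes encode short bZIP proteins that bind with Jun proteins and with IRF4 or IRF8. Batf was at 4.20 and 6.29 CPM, which at a log2 ratio of 0.58 (0.44 to 0.73) lay just under 1.5-fold. Batf3, known from dendritic cells, was at 2.40 and 1.78 CPM (log2 ratio -0.43, -0.67 to -0.19), below the mean of 5 CPM needed to enter the counts.

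Of the 9 members that averaged 5 CPM or more, 3 were at least 1.5-fold higher in the mutant library (Fos, Fosb and Atf3), against 13.1% of 8650 genes with that mean, and 2 were at least 1.5-fold lower (Fosl1 and Fosl2), against 5.94%. The median log2 ratio was 0.25 over the 9 members and 0.052 over all tested genes. Each of the 10 members kept its direction under all 10 alternatives for scaling, filters, doublets and other cell types. Those that changed only the minimum mean level leave every ratio as it was, so they could not turn a direction. TMM factors, median-of-ratios factors and the changed totals shift all genes by the same amount. The 1.5-fold line was sensitive to scaling. Fos lay under it with TMM factors (log2 ratio 0.57), with median-of-ratios factors (0.54) and with mitochondrial and ribosomal protein genes left out of the totals (0.53), and Fosb in the last of these (0.58). That setting also moved the split over all genes, since 68.7% of genes past 1.5-fold were higher in the mutant library with total UMIs and 55.2% without those genes. Without neutrophil-marker and stromal-marker cells the log2 ratios were 0.64 for Fos, 0.93 for Atf3, -1.30 for Fosl1 and -0.92 for Fosl2, as large as with them.

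**Figure D2:**
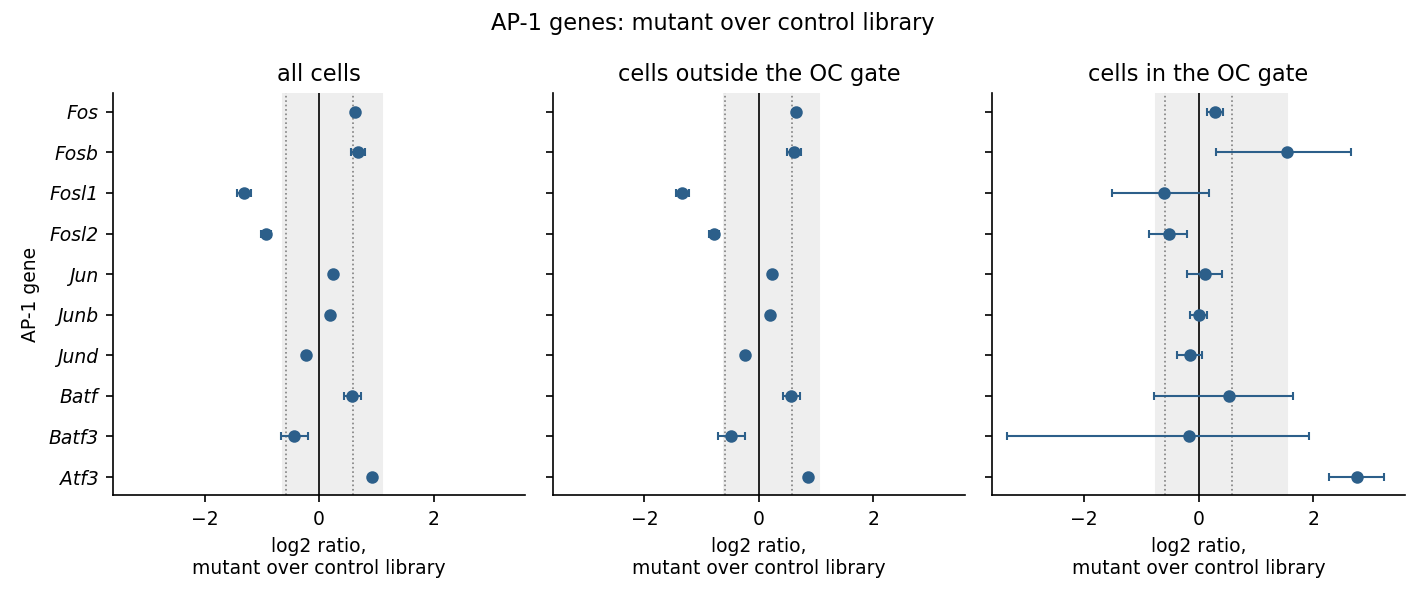
Log2 ratio of the mutant over the control library for the 10 AP-1 genes in all cells (left), cells outside the OC gate (middle) and cells in the OC gate (right). Points have exact conditional 95% intervals, dotted lines mark 1.5-fold, and the grey band spans the 5th to 95th percentile of all tested genes. Fosl1 and Fosl2 lay below the band in all cells and outside the gate, and Atf3 lay above it in OC-gate cells (log2 ratio 2.76).

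To follow the AP-1 genes with OC differentiation, cells were sorted by their osteoclast transcripts. Each cell was first thinned to 5000 UMIs, and a cell with at least 3 thinned UMIs over Ctsk, Mmp9 and Dcstamp, which encode a collagen-degrading protease, a matrix metalloproteinase and a fusion receptor of OCs, was placed in the OC gate. This gate held 372 of 6101 control cells (6.097%, exact binomial interval 5.51 to 6.73%) and 61 of 5312 mutant cells (1.15%, 0.879 to 1.47%). Cells shallower than 5000 UMIs, 168 in control and 351 in the mutant library, were left out. As a background, 0 of 15 control cells (which allows a share of up to 21.8%) and 2 of 70 mutant neutrophil-marker cells passed the gate (2.86%, 0.348 to 9.94%), although neutrophils can make Mmp9 themselves. The medians of these cells were 7167 and 9433 UMIs before thinning, against 27453 and 25818 UMIs in the gate. Gate levels were taken from the full, unthinned counts.

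Fosl2 was the member most enriched in OC-gate cells of both libraries. In the control library it stood at 73.8 CPM (68.9 to 79.0) in the gate and 22.2 CPM (21.4 to 22.9) outside, 3.33-fold higher (log2 ratio 1.73, 1.62 to 1.84), and in the mutant library at 51.4 CPM (41.1 to 63.4) and 13.0 CPM (12.3 to 13.6), 3.97-fold higher (log2 ratio 1.99, 1.66 to 2.30). Its direction was the same in cycling and in other cells, with log2 ratios of 1.80 and 1.69 in control and 2.15 and 1.84 in the mutant library. The size of the mutant ratio depended on the gate, at 0.84 without thinning and 2.51 with 5 UMIs needed. In control it was 1.51 and 1.93 under the same settings.

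Atf3 had the opposite direction. In the control library it was at 6.55 CPM (5.14 to 8.22) in the gate and 36.6 CPM (35.7 to 37.6) outside, 5.59-fold lower (log2 ratio -2.48, -2.83 to -2.15). Those 74 UMIs came from 28 of the 372 cells, and 5 cells held 50.0% of them. In the mutant library Atf3 was at 44.3 CPM (34.8 to 55.5) in the gate and 66.0 CPM (64.6 to 67.4) outside (log2 ratio -0.58, -0.92 to -0.25). This last ratio depended on how the gate was set. It was -2.51 with 5 UMIs needed, 0.033 with Acp5 added to the gate genes and 0.089 without thinning.

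Jun was also lower in OC-gate cells, at 59.2 CPM (54.8 to 63.9) against 88.2 CPM (86.7 to 89.7) in the control library (log2 ratio -0.58, -0.69 to -0.46) and 63.8 CPM (52.3 to 77.0) against 103 CPM (101 to 105) in the mutant library (log2 ratio -0.69, -0.98 to -0.42). Without thinning the Jun ratios were -0.39 in control and -0.27 in the mutant library. Junb and Jund were nearly level between the gates, with log2 ratios of 0.17 and -0.03 in control and -0.02 and 0.05 in the mutant library. Fos was at 242 CPM inside and 225 CPM outside the gate in the control (log2 ratio 0.10, 0.04 to 0.16), and at 295 and 352 CPM in the mutant library (log2 ratio -0.26, -0.39 to -0.13). Thus Fosl2 was higher and Jun lower in OC-gate cells of both libraries, and the most abundant genes Fos, Junb and Jund were within 1.2-fold of the other cells.

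Among the scarcer members, Fosb had 23 UMIs in control OC-gate cells, 2.04 CPM (1.29 to 3.05) against 5.88 CPM (5.50 to 6.28) outside (log2 ratio -1.53, -2.20 to -0.94), and 10 UMIs in mutant OC-gate cells. Fosl1 was at 12.6 CPM in the gate and 15.6 CPM outside in the control (log2 ratio -0.31, -0.57 to -0.07), and at 8.27 CPM from 14 UMIs and 6.18 CPM in the mutant library, with an interval that included equality (-0.46 to 1.17). Batf and Batf3 had at most 37 UMIs in the gate of either library. Of the members that averaged 5 CPM or more, 1 of 7 was at least 1.5-fold higher in control OC-gate cells, against 6.23% of 8509 genes, and 1 was lower, against 9.5%. In the mutant library 1 of 9 was higher, against 8.76% of 8801 genes, and 2 were lower (Jun and Fosb), against 8.29%.

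Grading cells by the number of osteoclast transcripts gave the levels along this scale. With 0, 1, 2, 3 to 5 and 6 or more thinned UMIs over Ctsk, Mmp9 and Dcstamp, the control library had 4804, 694, 231, 228 and 144 cells and the mutant library 4935, 270, 46, 48 and 13. A cell with 0 thinned UMIs can still hold such transcripts, since without thinning 1258 control and 264 mutant cells reached the 3 UMIs of the gate. Fosl2 in the control library was higher in each successive bin, at 19.2, 33.6, 46.3, 62.3 and 91.4 CPM, with no overlap of intervals between neighbouring bins. In the mutant library Fosl2 was at 12.9, 13.2, 19.8, 31.3 and 102 CPM, so its level differed little between 0 and 1 thinned UMIs and was below the control level in the first 4 bins. The last mutant bin holds under 20 cells, and a single cell gave 28.6% of its 49 Fosl2 UMIs.

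Atf3 in the control library was at 38.9, 28.7, 15.2, 6.29 and 6.94 CPM across the same bins. It was thus lower already in cells with 1 thinned UMI (26.4 to 31.2 CPM) than in cells with 0 (37.8 to 40.0 CPM). In the mutant library it was at 66.1, 65.7, 57.6 and 60.1 CPM over the first 4 bins, whose intervals all overlap, and at 4.18 CPM from 2 UMIs in the 13 cells of the last. The log2 ratio of the mutant over the control library for Atf3 was 0.76 (0.71 to 0.82), 1.20 (1.01 to 1.38), 1.92 (1.46 to 2.38) and 3.26 (2.69 to 3.83) in the first 4 bins. In the last bin the mutant level lay below the control level, with an interval that included equality (log2 ratio -0.73, -3.84 to 1.24).

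Jun in the control library was at 90.3, 81.7, 68.1, 60.6 and 57.1 CPM, with overlapping intervals in the last 3 bins, and in the mutant library at 103, 109, 68.7, 68.3 and 52.3 CPM. Fos stayed between 222 and 246 CPM in every control bin. Its mutant levels were 350, 379, 429, 319 and 234 CPM, so that in the last bin the 2 libraries did not differ beyond counting error (log2 ratio -0.05, -0.34 to 0.23). For reference, Nfatc1 was at 32.1 CPM in control cells of the first and 254 CPM in those of the last bin, and at 27.4 and 362 CPM in the mutant library.

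**Figure D3:**
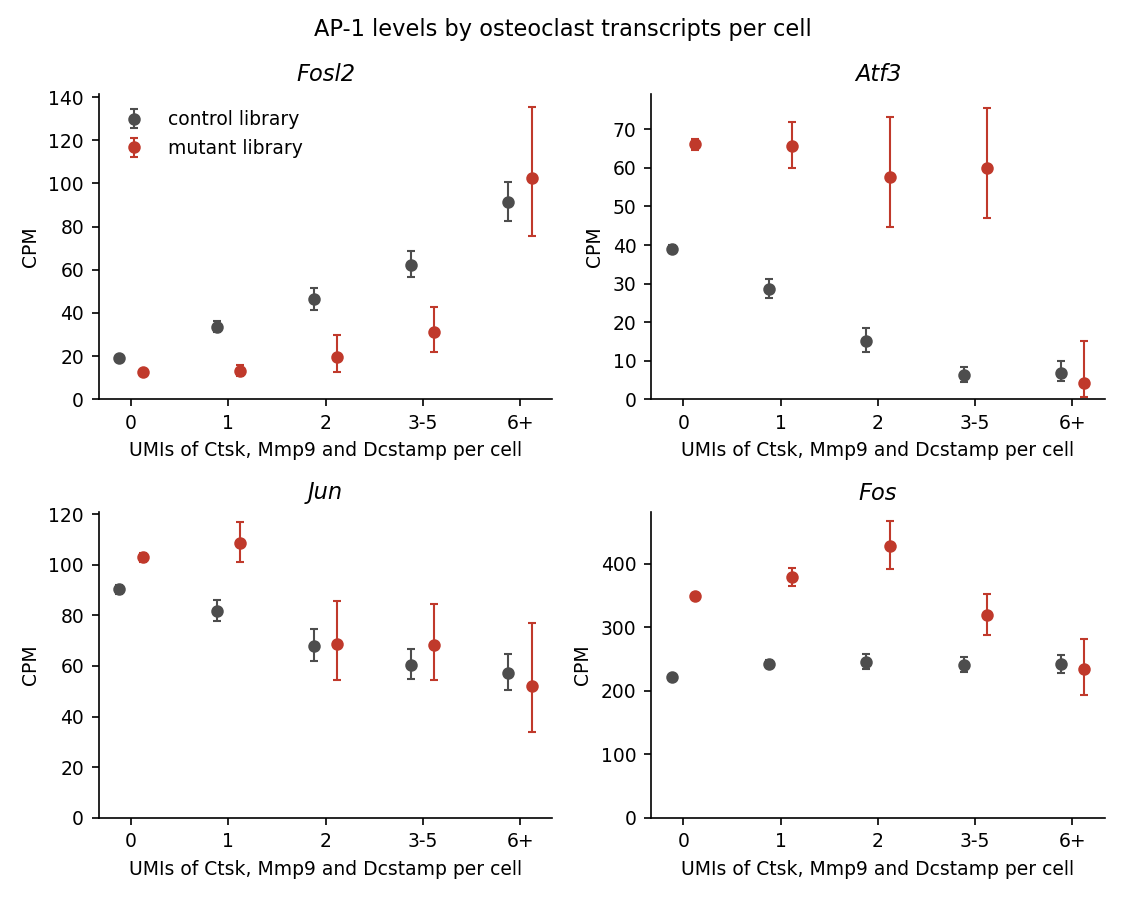
Levels of Fosl2, Atf3, Jun and Fos (CPM, linear axes from 0) in cells binned by thinned UMIs over Ctsk, Mmp9 and Dcstamp, with exact Poisson 95% intervals and 1 point per library and bin. Fosl2 was higher with more osteoclast transcripts in the control library (19.2 to 91.4 CPM), whereas Atf3 went from 38.9 to 6.94 CPM there but stayed between 57.6 and 66.1 CPM in the first 4 mutant bins.

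The libraries also differed in how many cells were in the OC gate, so the library ratio was taken within and outside it. Outside the gate the ratios of Fos at 0.64 (0.62 to 0.66), Atf3 at 0.85 (0.80 to 0.90) and Fosl1 at -1.33 (-1.45 to -1.22) were close to those over all cells. That of Fosl2 was -0.78 (-0.86 to -0.69). It depended on the gate, since it was -0.45 when the gate was set without thinning. Outside the main gate 3 of 9 members were at least 1.5-fold higher, against 12.7% of 8642 genes, and 2 lower, against 5.48%. In cells with 0 thinned osteoclast UMIs the ratio of Fosl2 was -0.58 (-0.67 to -0.48), smaller than over all cells. Within the gate, Atf3 was the 1 of 7 members averaging 5 CPM or more that was at least 1.5-fold higher in the mutant library, at 44.3 against 6.55 CPM (log2 ratio 2.76, 2.27 to 3.24), where 18.5% of 8695 genes were. Its 75 mutant and 74 control UMIs lay in 28 cells of each library, and the ratio was 1.06 with 5 UMIs needed for the gate. Fosb, under that mean, was at 5.90 CPM from 10 UMIs in the mutant and 2.04 CPM in the control gate (log2 ratio 1.54, 0.30 to 2.66), and its ratio was -0.60 with cells thinned to 2000 UMIs.

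Markers of other cells also differed between the gates. The 4 neutrophil markers summed to 14.9 CPM in control and 1024 CPM in mutant OC-gate cells, and the 4 stromal markers, all at 0 in the control gate, to 164 CPM. Without the 3 mutant gate cells called by these markers the sums were 119 and 0 CPM, and the Atf3 ratio was 2.78, as large as with them. The 6 monocytic markers summed to 3288 and 3617 CPM, but among them Adgre1 was at 53.3 and 260 CPM and Lgmn at 63.6 and 339 CPM, and their part in the Atf3 ratio was not tested. Fos in the gate was at 295 against 242 CPM (log2 ratio 0.29, 0.15 to 0.43), Fosl2 at 51.4 against 73.8 CPM (log2 ratio -0.52, -0.86 to -0.20), and Fosl1, at 8.27 against 12.6 CPM, was the 1 of 7 members past 1.5-fold in the lower direction (8.99% of genes), with an interval that included equality (-1.51 to 0.19). Junb was at 268 and 267 CPM.

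Cycling state, the second axis, was set by at least 3 thinned UMIs over Mki67, Top2a, Aurka and Cdk1, genes of the mitotic cycle. It held 2364 of 6101 control cells (38.7%) and 1768 of 5312 mutant cells (33.3%), with 147 and 28 of them also in the OC gate. Atf3 had the largest log2 ratio along this axis in both libraries, at 26.4 CPM in cycling and 40.6 CPM in other control cells (log2 ratio -0.62, -0.70 to -0.54) and at 50.99 and 74.2 CPM in the mutant library (log2 ratio -0.54, -0.61 to -0.47). Jund was lower in cycling cells of both libraries, at 112 against 136 CPM (log2 ratio -0.28, -0.32 to -0.24) in control and 90.4 against 117 CPM (log2 ratio -0.37, -0.42 to -0.32) in the mutant library. Fosb went the opposite way, with log2 ratios of 0.41 (0.22 to 0.60) and 0.33 (0.16 to 0.50). Fosl1 was at 17.9 CPM in cycling and 13.5 CPM in other control cells (log2 ratio 0.40, 0.29 to 0.52). Fosl2 was level in both libraries, with ratios of -0.06 (-0.15 to 0.03) and -0.05 (-0.19 to 0.09). Past 1.5-fold in the control library were 0 of 8 members in the higher direction, against 4.98% of 8513 genes, and 1 of 8 in the lower, against 0.681%. In the mutant library 0 of 9 members passed either way, against 6.26% and 0.596% of 8724 genes.

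Crossing both gates gave 4 states. In cells with neither mark (3512 control and 3511 mutant cells) the mutant over control log2 ratio was 0.56 (0.54 to 0.59) for Fos, 0.80 (0.74 to 0.86) for Atf3, -1.23 (-1.38 to -1.07) for Fosl1 and -0.78 (-0.89 to -0.67) for Fosl2. In cells that were cycling alone (2217 and 1740 cells) the same ratios were 0.76 (0.72 to 0.79), 0.86 (0.77 to 0.95), -1.43 (-1.62 to -1.25) and -0.79 (-0.93 to -0.65). Thus 2 members were past 1.5-fold upward in the first state and 3 in the second, against 12.4% and 14.3% of genes, and 2 downward in each, against 5.51% and 5.81%. With gates set without thinning, the ratio of Fosl2 was -0.34 in the first state and -0.50 in the second. That of Atf3 was then 0.57 and 0.68. The OC states held 33 and 28 mutant cells, and there Atf3 was higher in the mutant library both outside cycling (45.1 against 8.54 CPM, log2 ratio 2.40, 1.75 to 3.04) and in cycling cells (43.5 against 4.12 CPM, log2 ratio 3.40, 2.60 to 4.24). Outside cycling this rested on the gate, since with 5 UMIs needed (16 mutant cells) the ratio was 0.18, under 1.5-fold, and in cycling OC cells it was 1.95 without thinning. In OC cells outside cycling, 1 of 7 members was past 1.5-fold upward (19% of genes) and 1 downward (14.6%). In cycling OC cells, 2 of 8 were past it upward (21.9%) and 1 downward (11.1%).

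Interferon-induced transcripts were far more abundant in the mutant library, and AP-1 levels were therefore read against them. Of the 12 tested genes of the interferon loop 10 were at least 1.5-fold higher and 0 lower, from Irf7, a transcription factor of the interferon response (78.7 against 612 CPM, log2 ratio 2.96), to the receptor gene Ifnar2 (64.1 against 82.2 CPM, 0.36). Ifnb1 itself had 2 UMIs in control and 100 in the mutant library (log2 ratio 5.96, 4.07 to 9.02). Cells with 0, 1 to 2, 3 to 9 and 10 or more thinned UMIs over Ifit1, Ifit2, Ifit3 and Rsad2 numbered 4968, 832, 227 and 74 in control and 1449, 2147, 1504 and 212 in the mutant library.

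Atf3 was higher with more interferon-induced transcripts in both libraries, at 30.7, 49.5, 52.8 and 68.0 CPM in control and 55.9, 63.9, 69.8 and 131 CPM in the mutant library. Fosl1 was lower with more of them, at 15.8, 14.7, 11.1 and 8.68 CPM in control and 7.86, 6.05, 5.19 and 3.54 CPM in mutant cells. Fosl2 had the same order, at 26.9, 21.1, 19.8 and 16.9 CPM in control and 14.3, 13.8, 12.7 and 8.19 CPM in the mutant library. Many neighbouring bins had overlapping intervals, namely the last 3 of Atf3 in control, all of Fosl1 in control, the last 3 of Fosl1 in the mutant library, the last 3 of Fosl2 in control and the first 3 of Fosl2 in the mutant library. The first and last bins did not overlap for any of these 3 genes in either library. Fos, the gene at the start of the interferon loop, spanned 225 to 257 CPM in control and 338 to 368 CPM in the mutant library. These are transcript levels, and c-Fos protein, which interferon beta restrains, was not measured, so they do not show whether that feedback acted. Batf was between 3.86 and 4.39 CPM in control and between 5.31 and 6.42 CPM in the mutant library.

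Set against cells with 0 such thinned UMIs, control cells with 10 or more had 1 of 7 members at least 1.5-fold higher (7.94% of 8494 genes) and 2 lower (9.08%), and mutant cells had 1 of 9 higher (8.57% of 8683 genes) and 2 lower (15.2%). The difference between the libraries was also present among cells with 0 thinned UMIs of both the interferon-induced and the osteoclast genes, which were 3845 control and 1355 mutant cells. In these the log2 ratio of mutant over control was 0.60 (0.56 to 0.63) for Fos, 0.72 (0.63 to 0.80) for Atf3, -1.06 (-1.25 to -0.87) for Fosl1 and -0.51 (-0.67 to -0.37) for Fosl2. In these cells 3 of 9 members were thus at least 1.5-fold higher (11.8% of 8639 genes) and 1 lower (4.31%). A cell with 0 thinned UMIs over the 4 interferon-induced genes can still hold such transcripts. This bin therefore does not separate the ratios from an interferon response, whose part in them was not tested.

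**Figure D4:**
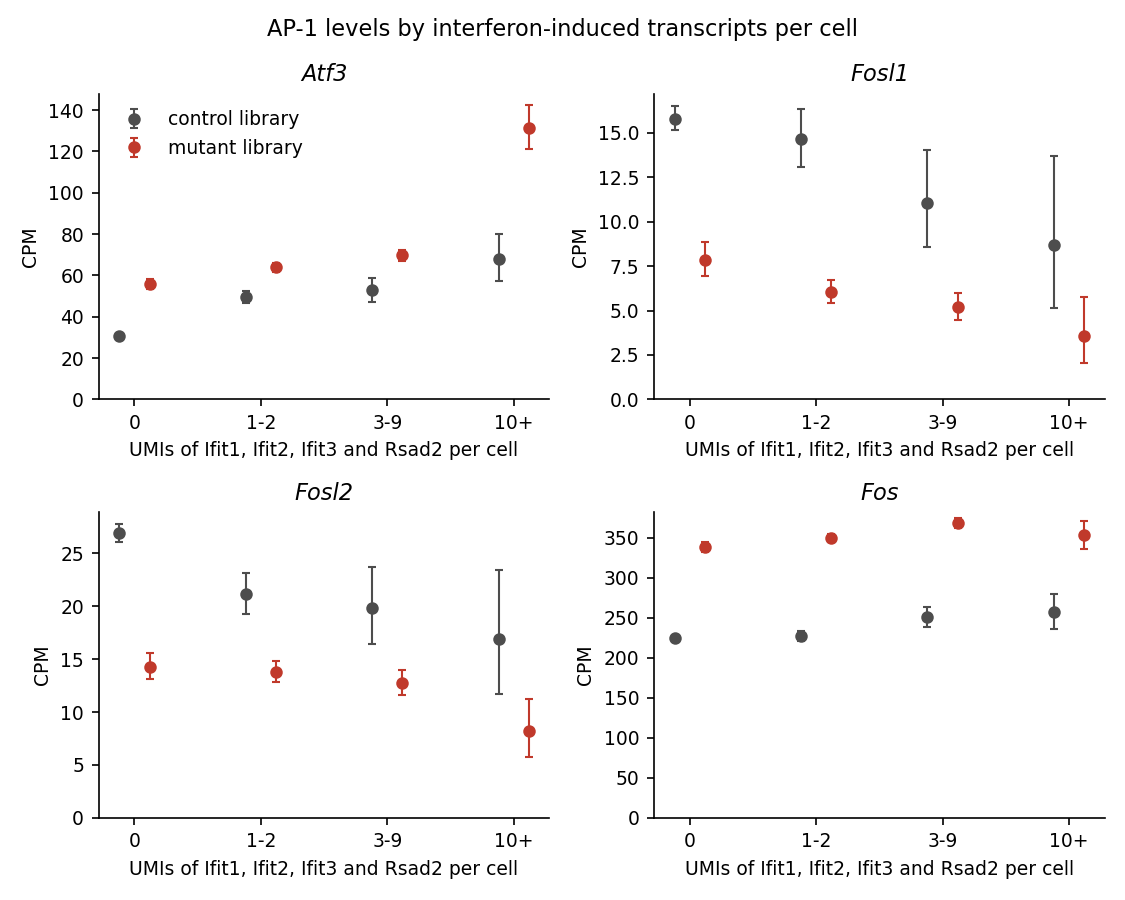
Levels of Atf3, Fosl1, Fosl2 and Fos (CPM, linear axes from 0) in cells binned by thinned UMIs over Ifit1, Ifit2, Ifit3 and Rsad2, with exact Poisson 95% intervals and 1 point per library and bin. Atf3 went from 30.7 to 68.0 CPM in control and from 55.9 to 131 CPM in the mutant library, and Fosl1 was lower in the mutant library in every bin.

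Other genes around AP-1 were read from lists that, like the interferon loop above, were chosen with earlier results of these data known. Their counts therefore describe the lists and cannot show an excess over all genes. Of the immediate-early and dissociation genes, 5 of the 12 tested were at least 1.5-fold higher in the mutant library and 0 were lower. They ran from Dusp1, a MAP kinase phosphatase (103 against 230 CPM, log2 ratio 1.16), to Ier3 (50.9 against 41.0 CPM, -0.31). Egr1, another immediate-early factor, was low in both libraries at 1.34 and 2.34 CPM. Both cultures were detached with trypsin, and the part of cell handling in the levels of Fos, Fosb and Atf3 was not tested. Of the genes that signal to AP-1, 2 of 18 were higher and 0 lower, with Dusp6, an ERK phosphatase (8.47 against 17.7 CPM, log2 ratio 1.06), and Map2k2, an ERK kinase (206 against 141 CPM, -0.55), at the ends.

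Among 17 tested bZIP genes outside the 10, 4 were higher and 1 lower in the mutant library. Maf, a macrophage factor, was at 47.6 CPM in control and 144 CPM in the mutant library (log2 ratio 1.60). Jdp2, a Jun dimerisation partner known to promote OC formation, was at 152 and 60.3 CPM (log2 ratio -1.34) and, like Fosl2, was higher in OC-gate cells of both libraries (480 against 128 CPM in control and 296 against 57.2 CPM in the mutant library). Of the AP-1 partners and targets in the OC lineage, 4 of 8 were lower in the mutant library and 0 higher, from Atp6v0d2, a proton pump subunit linked to OC fusion (26.8 against 10.9 CPM, log2 ratio -1.30), to Irf8, a repressor of OC formation (32.1 against 37.1 CPM, 0.21). Nfatc1 was at 51.6 and 29.9 CPM (log2 ratio -0.79). Outside the OC gate 1 of 8 tested partners and targets was lower, against 5.48% of genes, and 0 higher (12.7%). Within the gate 2 of 10 were lower (8.99%) and 0 higher (18.5%). The log2 ratio of Nfatc1 was -0.50 outside and -0.57 within the gate. The part of the smaller share of OC-gate cells in the ratios over all cells was not tested. Irf4, a partner of Batf, had 7 UMIs in control and 39 in the mutant library. Of the integrated stress genes beside Atf3, 1 of 4 tested was higher and 0 lower, with Asns, asparagine synthetase (14.1 against 25.4 CPM, log2 ratio 0.85), and Hmox1, heme oxygenase (230 against 194 CPM, -0.25), at the ends. The list counts over all cells stand beside 13.1% higher and 5.94% lower over all genes, as a description and not a test.

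In control OC-gate cells, 7 of 11 tested immediate-early genes were at least 1.5-fold lower than outside the gate (9.5% of all genes) and 0 higher (6.23%), with Dusp1 at 36.0 against 108 CPM (log2 ratio -1.58). Mutant OC-gate cells had 2 of 13 lower (8.29% of all genes) and 1 higher (8.76%), with Dusp1 at 133 against 231 CPM (log2 ratio -0.80). Irf8 was lower in the gate in both libraries (8.94 against 33.8 CPM and 12.4 against 37.3 CPM). Between the OC-gate cells of the libraries, 7 of 12 immediate-early genes were higher in the mutant one (18.5% of all genes) and 0 lower (8.99%). Of the interferon loop 12 of 12 were higher there, up to a log2 ratio of 4.49 for Ifit2, and 0 lower. The part of these differences in the Atf3 ratio of 2.76 within the gate was not tested.

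Counts of several members were spread unevenly over cells. After thinning, the variance of Fos over its mean was 1.62 in control and 1.97 in the mutant library, where a Poisson count would give 1, and exceeded that of 96.4% and 96.5% of genes of at least 0.05 mean UMIs. Atf3 had ratios of 1.53 and 1.69, above 95.5% and 95.02% of genes. Junb followed at 1.37 and 1.63, Jun at 1.23 and 1.32 and Jund at 1.15 and 1.24. The shares of genes given here were not matched for mean level, so they do not set a member against genes of its own level. The genes that shared UMIs across cells with a member did so weakly, as is usual in sparse counts of cells that share a library and differ in depth and state. Over 6083 control and 5239 mutant cells, the 3 genes of 5219 with the highest mean Pearson correlation were Fth1 (0.23), Prdx1 (0.21) and Ctsb (0.21) for Atf3, Nfkbia (0.15), Jdp2 (0.13) and Rpl13 (0.13) for Fos, Nfkbia (0.15), Jdp2 (0.14) and Nrp2 (0.12) for Junb, Ctsb, Ccl2 and Ctsd (each 0.11) for Jun, and Lgals3 (0.10), Fth1 (0.096) and Mmp12 (0.087) for Jund. Among the 5 members of at least 20 CPM, the pair with the highest value was Jun and Atf3 in control (0.077, against 0.025 in the mutant library) and Fos and Junb in the mutant library (0.17, against 0.073 in control), and Fos and Jun were at -0.01 and 0.03.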

How the data were processed

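Counts were deposited as 1 sparse matrix per library, which the authors produced using Cell Ranger 6.1.0 (named in the file headers), from Chromium 3′ v3.1 libraries with UMIs. The values are raw UMI counts. GRCm39 is the named build. The methods name an aggregation step, and whether these counts precede it was not given in the sources used here. Cells with at least 500 genes and at most 10% mitochondrial UMIs were kept (186 control and 202 mutant barcodes removed, 163618835 and 131469887 UMIs left). Doublets were kept, and removed in an alternative by simulated-doublet scores (333 and 275 cells).

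UMIs were summed per library and state and given as CPM with exact Poisson 95% intervals, and log2 ratios with exact conditional intervals. A gene counted as higher or lower past 1.5-fold at a mean of at least 5 CPM. Gates and bins were set on cells thinned to 5000 UMIs. Neutrophil-marker cells had at least 5% of UMIs in 4 markers. Promoter windows came from RefSeq (GRCm38.p6), and gene positions from GENCODE M39. The calculations were tested on simulated data. Python 3.11.15, NumPy 2.4.6, SciPy 1.17.1 and edgeR 4.0.16 (TMM factors only) were used.

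All 10 members are named, with the highest and lowest gene of each list at that mean, the genes told of in the background, and the 3 genes most correlated with each member of at least 20 CPM. Members and lists were chosen with earlier results of these data known. The removal of cells under 5000 UMIs and the search for TGACGT were added after seeing the data. Ddit3, whose symbol is repeated in the gene table, was not used.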

Additional observations from a re-analysis of the deposited data

Results flagged for a closer look

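The ratio of OC-gate cells over other cells for Fos lay on opposite sides of 0 in the 2 libraries, with log2 ratios of 0.10 (control) and -0.26 (mutant). Jun did the same along the cycling axis, at -0.081 (control) and 0.075 (mutant). In both cases the intervals of counting error left out 0, but with 1 library per group the difference between the libraries was not tested. The Fos ratio was -0.034 in the control library with cells thinned to 2000 UMIs and 0.071 in the mutant library without thinning or with Acp5 added to the gate, so that its sign also moved with the setting in each.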

How the results depend on the processing

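No paired analysis was possible because each group has 1 library. Over all cells, the members at least 1.5-fold higher numbered 1 in place of 3 with mitochondrial and ribosomal protein genes left out of the totals (only Atf3 stayed) and 2 with TMM or median-of-ratios factors (Fos, at 0.57 and 0.54, lay under the line), and those at least 1.5-fold lower 0 in place of 2 with a mean of at least 20 CPM (both lie under that mean). Of all genes past 1.5-fold, 68.7% were higher with total UMIs, 59.9% with TMM factors, 56.5% with median-of-ratios factors, 55.2% without mitochondrial and ribosomal protein genes and 70.4% with means of per-cell CPM, and the median log2 ratio moved from 0.052 to -0.012, -0.038, -0.048 and 0.070. Other counts moved with the gates, and the cause was not tested. The share of all genes past 1.5-fold was not taken under these other gates. The counts that follow therefore describe the members alone and cannot be set against all genes. Without thinning, mutant over control gave 0 higher and 1 lower in cells with neither mark, 1 lower in cells cycling alone, 2 higher and 2 lower in OC cells outside cycling, 2 lower in cycling OC cells, 2 lower in the OC gate and 1 lower outside it, the mutant library had 2 higher and 0 lower in OC-gate cells, with Batf3 turned to 0.21, and 1 lower in cycling cells. At 2000 UMIs, cycling OC cells gave 1 higher and 2 lower, the control library 3 lower in OC-gate cells, and Fosb turned to -0.62 in OC cells outside cycling and -0.60 in the gate. With 2 UMIs needed, OC cells outside cycling gave 2 higher, and mutant OC-gate cells 2 higher and 1 lower. With 5 UMIs needed, OC cells outside cycling gave 0 lower, with Atf3 at 0.18 in place of 2.40, Fosl2 turned to 0.057 and Batf to -0.60, cycling OC cells 1 higher and 3 lower, the OC gate 0 lower, control OC-gate cells 2 lower and control cycling cells 0 lower. With Acp5 added, mutant over control gave 2 higher in OC cells outside cycling and in the gate and 2 lower in cycling OC cells, and mutant OC-gate cells 0 lower. Without Mki67, OC cells outside cycling gave 2 lower. Without doublets, cycling OC cells gave 1 higher, the OC gate 0 lower, control OC-gate cells 2 lower and mutant cycling cells 1 lower. Without neutrophil-marker and stromal-marker cells, the OC gate gave 0 lower and mutant OC-gate cells 1 lower. The other 136 counts stayed within 1.5 times. The OC states rest on 33 and 28 mutant cells, so that members under 10 UMIs there have intervals spanning several fold.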

Other observations

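AP-1 levels in the neutrophil-marker cells differed from those of the other cells. The 83 mutant cells of this kind had Fos at 124 CPM (102 to 149), Jun at 20.6 CPM (12.4 to 32.2) and Atf3 at 20.6 CPM (12.4 to 32.2), each below the level over all mutant cells. Fosl1 had 0 UMIs in 922297, which allows up to 4.0 CPM, against 6.21 CPM over all mutant cells. The 17 control cells had 14 Fos UMIs in 150795.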
